A study of Homo sapiens with 6 samples.

Results

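Angiopoietins and ligands of the vascular endothelial growth factor (VEGF) family are secreted proteins through which tumor cells signal to blood and lymphatic vessels. Transcript levels of 6 such genes were followed, of 60617 gene IDs in the files: the angiopoietins ANGPT1 and ANGPT2, the angiopoietin-like gene ANGPTL2, and the VEGF family ligands VEGFB, VEGFC and PGF. The members were chosen by their values in these same libraries, and ANGPT2 was selected on its opposite changes in the 2 resistant lines. Their levels and fold changes are therefore a description and carry no p-value. RNA-seq had been run on 6 libraries, 2 from each of 3 groups of the human melanoma line 1205Lu, which carries BRAF V600E. The groups were PBRT15 cells kept in 500 nM PLX8394, PBRT16 cells kept in 500 nM PLX8394, and parental cells in the solvent DMSO. Where the paper compares their pathways, it names parental and PBRT cells alike as of the TR derivative of the line. PLX8394 is a BRAF inhibitor of the paradox breaker type. The PBRT lines were each grown out of a tumor that had become resistant to it in mice, and the TR derivative holds a reporter of ERK pathway activity. Each resistant line was compared with parental cells to ask what differs in cells that have acquired tolerance of BRAF inhibition. Both comparisons share the same 2 parental libraries. Line and drug differ together, so that their contributions cannot be told apart. Each PBRT line stems from 1 tumor, and no label tells whether a pair of libraries stems from separate cultures. The p-values therefore measure library-to-library spread, which may be technical.

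VEGF ligands act through the receptor tyrosine kinases FLT1, KDR and FLT4, with the neuropilins NRP1 and NRP2 as coreceptors. VEGFA drives the sprouting of blood vessels through KDR, PGF and VEGFB bind FLT1, and VEGFC is the classical ligand of FLT4 on lymphatic endothelium, released in active form only after proteolytic cleavage. ANGPT1 activates the receptor TEK (TIE2) and steadies vessels, whereas ANGPT2 competes with it in most settings and loosens them. ANGPTL2 does not bind TEK and has been linked to integrins and to inflammation and invasion in tumors.

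The 250 bases before the RefSeq transcription start are shown for VEGFC, ANGPTL2 and PGF, whose level differed between the groups, to set the sequence upstream of each gene beside its values. They are RefSeq sequences of build GRCh38.p14, and 4 of the 6 members had such an entry in the table used. Capitals mark GC boxes (GGGCGG) and, in ANGPTL2, the letters of a SOX motif (ACAAAG), on either strand. VEGFC lies at chr4:176683538-176792922 on the minus strand and its window at chr4:176792923-176793172. ANGPTL2 lies at chr9:127087348-127122635 on the minus strand and its window at chr9:127122636-127122885. PGF lies at chr14:74941834-74955626 on the minus strand and its window at chr14:74955765-74956014, which does not adjoin the gene because RefSeq places the start of PGF further upstream than the gene annotation (GENCODE v44) used for these coordinates. The other windows adjoin their gene.
VEGFC: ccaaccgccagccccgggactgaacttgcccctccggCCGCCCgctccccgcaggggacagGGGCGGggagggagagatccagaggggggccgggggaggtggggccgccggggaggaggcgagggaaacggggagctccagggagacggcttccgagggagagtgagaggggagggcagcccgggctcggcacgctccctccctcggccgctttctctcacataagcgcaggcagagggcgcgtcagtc
ANGPTL2: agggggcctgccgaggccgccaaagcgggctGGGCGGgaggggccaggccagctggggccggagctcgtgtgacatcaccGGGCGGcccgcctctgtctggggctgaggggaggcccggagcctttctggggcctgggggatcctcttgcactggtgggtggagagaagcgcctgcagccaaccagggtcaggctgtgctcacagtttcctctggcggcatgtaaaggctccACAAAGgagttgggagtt
PGF: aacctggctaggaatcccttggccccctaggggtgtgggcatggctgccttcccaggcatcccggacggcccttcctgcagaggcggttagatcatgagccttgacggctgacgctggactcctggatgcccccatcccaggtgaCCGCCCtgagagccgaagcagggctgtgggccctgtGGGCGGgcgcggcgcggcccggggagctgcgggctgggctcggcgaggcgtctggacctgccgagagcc
Each of the 3 windows held 2 GC boxes, and that of VEGFB (chr11:64234334-64234583, plus strand) held 6. A GC box was found in 42.2% of 27303 promoter windows of the same length. The GC content was 74.0% for VEGFC, 68.4% for ANGPTL2, 70.8% for PGF and 82.8% for VEGFB, against a median of 57.6% over all windows. The SOX motif occurred once, in ANGPTL2, 18 bases before the start, and in 13.7% of all windows. None of the 4 windows held a TATA box (TATAAA, 11.2% of all windows), an AP-1 site (TGANTCA, 6.57%) or a TEAD motif (GGAATG, 12.0%). These matches describe letters only and are not evidence of binding.

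The deposited values are normalized and sum to between 27877963 and 29580752 per library. The 2 libraries of a group correlated across genes at r = 0.984 to 0.986 on the log2 scale, and no library stood apart. A gene was tested where it reached a value of 10 in at least 2 libraries, which held for 16555 genes. All 6 members passed, but ANGPT2 did so only through the PBRT15 libraries and VEGFC only through the PBRT lines. Genes named below that passed only where they are high include TEK, ANGPTL1, THY1 and PDGFD (PBRT15) and KDR, DES and PDGFB (PBRT16). CCBE1, CXCL12, ADM, EDN1, ERG, ANGPTL4 and DCN passed only through the PBRT lines. The tests of such genes are read as a description. The melanocyte lineage gene SOX10 was 0 and 0.791 in PBRT15 and 1.5 and 0.778 in PBRT16, against 4360 and 4103 in parental cells. Of 7 tested markers of that lineage, 4 fell and 1 rose in each line. All genes tested fell at 19.5% and rose at 21.6% in PBRT15, and at 19.0% and 21.1% in PBRT16. MITF rose, to 823.5 and 927.0 in PBRT15 and 2209 and 2159 in PBRT16, against 109.0 and 113.3 in parental cells (limma adjusted p = 0.000202 in PBRT15 and 8.4e-05 in PBRT16). Markers of endothelial cells, the usual source of ANGPT2, were low: of 10 such markers 4 stayed under 10 in every library and EMCN was at 0, with summed values of 57.2 and 119 in PBRT15, 111 and 105 in PBRT16 and 54.2 and 58.6 in parental cells. ERG, an endothelial transcription factor, rose among them, to 22.4 and 55.4 in PBRT15 (limma adjusted p = 0.0179) and to 54.6 and 58.5 in PBRT16 (adjusted p = 0.0105), against 5.43 and 1.01 in parental cells. Of the 4 endothelial markers tested, VWF fell in PBRT15 (log2 fold change -1.61, adjusted p = 0.0392) and ESAM fell in PBRT16 (-1.51, adjusted p = 0.0284). Of 8 immune markers 6 were under 10 in every library. LST1 was 39.1 in parental replicate 2, at most 4.58 in any other library, and was not tested. CD68, the 1 that was tested, rose by 1.27 ± 0.30 in PBRT15 (adjusted p = 0.0273) and by 1.35 ± 0.30 in PBRT16 (adjusted p = 0.0229), to 2722 and 2194 in PBRT15 and 2146 and 3118 in PBRT16, against 818.7 and 1260 in parental cells. These are bulk samples, in which fewer cells expressing a gene and less RNA per cell cannot be told apart.

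ANGPT2 (ENSG00000091879, chr8:6499632-6563409, minus strand) was the member with the widest range. Its normalized value was 3297 and 2700 in the PBRT15 libraries, 1.99 and 2.06 in the PBRT16 libraries, and 5.93 and 6.70 in the parental libraries. The groups did not overlap, and PBRT15 stood alone at a high level while both others were near the floor of detection. The means were 2999 ± 421.5 in PBRT15 and 6.32 ± 0.546 in parental cells (SD, n = 2 each), a ratio of means of 475. The fitted log2 fold change in PBRT15 was 8.67 ± 0.15 (SE), on log2(value + 1). In PBRT16 the mean of 2.02 ± 0.0548 (SD, n = 2) was 0.321 times that of parental cells, and the fitted log2 fold change was -1.27 ± 0.15. Both groups of that second comparison lay under the value of 10 used as a minimum. Among all genes tested, 77 (0.465%) rose in PBRT15 and fell in PBRT16, and as ANGPT2 was selected for this pattern nothing is read from its presence there.

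ANGPT1 (ENSG00000154188, chr8:107249482-107498055, minus strand), the agonist of the pair, varied much less. It was 672.5 and 505.1 in PBRT15, 314.3 and 374.4 in PBRT16, and 332.2 and 311.9 in parental cells. Both PBRT15 libraries were above both parental ones, with a log2 fold change of 0.85 ± 0.19 (SE), whereas the PBRT16 libraries lay on either side of the parental values (0.09 ± 0.19). Per kilobase of the reference (MANE Select) transcript, the level of ANGPT2 was 3.94 and 4.29 times that of ANGPT1 in PBRT15. The same ratio was 0.00507 and 0.00442 in PBRT16 and 0.0143 and 0.0173 in parental cells. ANGPT2 thus made up 79.7% and 81.1% of the summed angiopoietin level in PBRT15, 0.499% and 0.440% in PBRT16 and 1.41% and 1.70% in parental cells, with ANGPT4 the only other angiopoietin and at most 3.62 in any library.

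**Figure D1:**
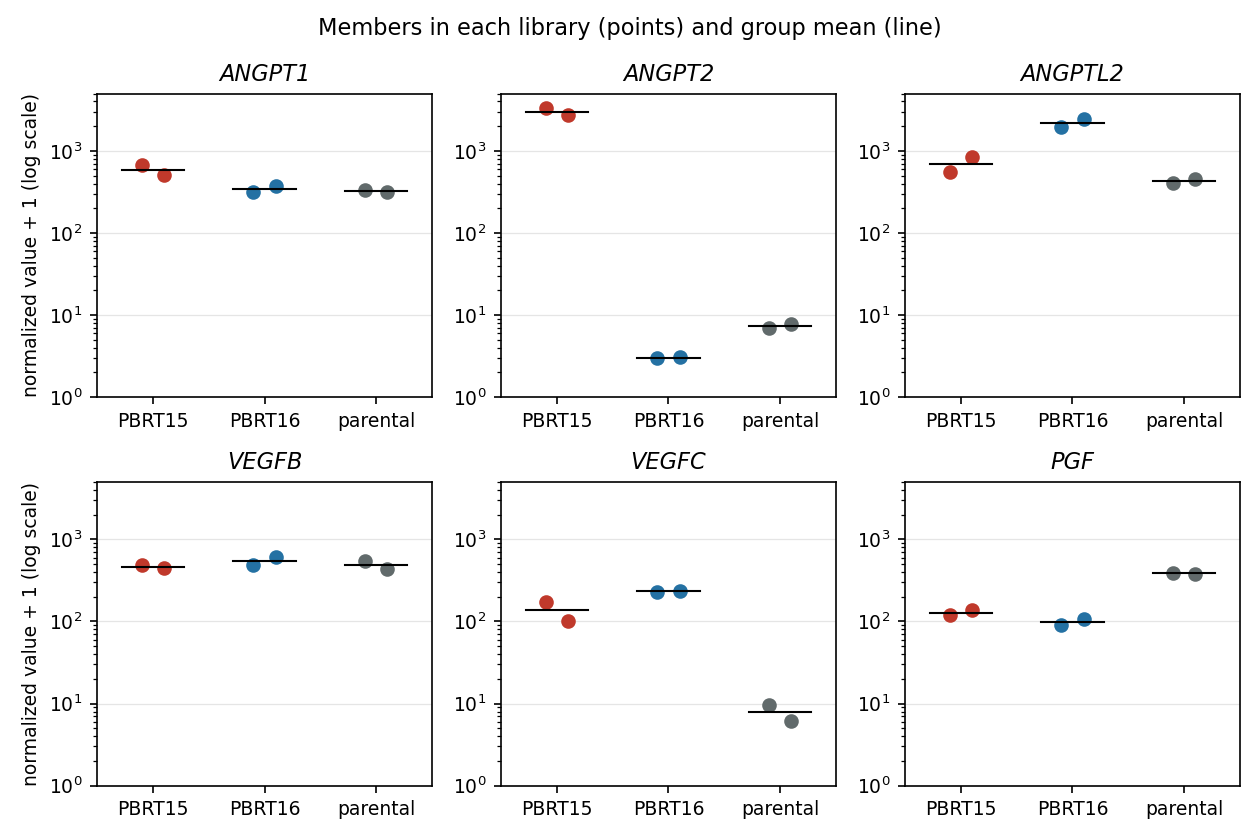
Normalized value + 1 (log axis) of each of the 6 members in the 2 libraries of PBRT15, PBRT16 and parental cells; points are libraries and lines are group means. ANGPT2 was at 2700 or more in PBRT15 alone, VEGFC was above 100 in both PBRT lines and under 10 in parental cells, PGF was highest in parental cells, and VEGFB lay between 438.6 and 602.7 throughout.

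TEK, the receptor of both angiopoietins, was high in the line in which ANGPT2 was high. Its value was 242.4 and 215.4 in PBRT15, 1.98 and 5.02 in PBRT16 and 1.00 and 6.79 in parental cells. TEK rose in PBRT15 by 5.86 ± 0.72 on the log2 scale (SE; limma adjusted p = 0.00392), while the value for PBRT16 was 0.10 ± 0.72 (adjusted p = 0.922). As it passed the filter only through the PBRT15 libraries, its tests describe that line and are no support for the ANGPT2 result. PBRT16 was below PBRT15 for TEK by a log2 difference of -5.76 (adjusted p = 0.0125), a call that was lost without either PBRT15 library or without replicate 1 of PBRT16. TIE1, the partner receptor of TEK, was at most 4.61, and the phosphatase PTPRB, which acts on TEK, at most 3.60 in any library. SVEP1, a large matrix protein that binds angiopoietins, was 3576 and 2846 in PBRT15, 311.2 and 345.4 in PBRT16 and 67.3 and 103.7 in parental cells. It rose in both lines, by 5.24 ± 0.25 in PBRT15 (adjusted p = 0.000319) and by 1.96 ± 0.25 in PBRT16 (adjusted p = 0.00463). ANGPTL1, an angiopoietin-like gene that was no member, showed the opposite changes with a test: 74.1 and 64.4 in PBRT15, 1.91 and 0.995 in PBRT16, and 13.0 and 7.47 in parental cells. Its log2 fold change was 2.68 ± 0.32 in PBRT15 (adjusted p = 0.00354) and -2.18 ± 0.32 in PBRT16 (adjusted p = 0.00656), although the PBRT16 values are under 2 and ANGPTL1 passed the filter only through PBRT15.

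Markers of fibroblasts were highest in PBRT15, as was ANGPT2, but they did not all follow it in PBRT16. Their summed value over 10 genes was 139500 and 150000 in PBRT15, 15160 and 21080 in PBRT16, and 7497 and 6551 in parental cells. Of the 7 that could be tested, 7 rose in PBRT15, beside 21.6% of all genes tested. All 7 were lower in PBRT16 than in PBRT15, beside 8.28% of all genes. Against parental cells 3 rose and 2 fell in PBRT16, beside 21.1% and 19.0% of all genes. COL1A1, which rose in both lines, was 60710 and 67060 in PBRT15, 9942 and 14430 in PBRT16 and 13.9 and 32.7 in parental cells (adjusted p = 0.000171 in PBRT15 and 0.000311 in PBRT16). DCN and FBLN1 rose in PBRT16 as well, by 2.90 ± 0.31 (adjusted p = 0.00278) and by 1.42 ± 0.16 (adjusted p = 0.00313). COL1A2, a fibrillar collagen chain, was 38540 and 41290 in PBRT15, 19.9 and 15.4 in PBRT16 and 14 and 23.2 in parental cells, and THY1, a surface glycoprotein, was 19570 and 19760 in PBRT15, 8.14 and 6.84 in PBRT16 and 0 and 4.46 in parental cells. LUM, DPT and MFAP5, which also define fibroblasts, were under 10 in every library. The part of these genes in the ANGPT2 result was not tested. The 3 tested genes closest to ANGPT2 in pattern, by the root mean square difference of centred log2 values over the 6 libraries, were ISLR at 0.613, THY1-AS1 at 0.667 and TMEM100 at 0.724, and 6 genes came within 1. ISLR, a secreted leucine-rich repeat protein, was 5255 and 6026 in PBRT15, 6.41 and 4.82 in PBRT16 and 4.62 and 6.10 in parental cells. THY1-AS1 runs antisense to THY1, with which it may share reads.

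ANGPT2 lies within MCPH1, a gene of chromosome condensation on the plus strand, and the sources used here do not state whether reads were counted by strand. MCPH1 did not follow ANGPT2: it was 527.5 and 433.3 in PBRT15, 376.7 and 420.6 in PBRT16 and 640.6 and 666.7 in parental cells. Its log2 fold change was -0.45 ± 0.15 in PBRT15 (adjusted p = 0.0659) and -0.71 ± 0.15 in PBRT16 (adjusted p = 0.0188).

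ANGPTL2 (ENSG00000136859) was the member most raised in PBRT16 among those already well expressed in parental cells. It was 548.2 and 853.1 in PBRT15, 1961 and 2414 in PBRT16 and 410.1 and 448.3 in parental cells, so that the groups did not overlap and PBRT16 was the highest. The means were 700.6 ± 215.6 in PBRT15, 2188 ± 320.3 in PBRT16 and 429.2 ± 27.0 in parental cells (SD, n = 2 each), with log2 fold changes of 0.67 ± 0.25 in PBRT15 and 2.34 ± 0.25 in PBRT16 (SE). ANGPTL2 and ANGPT2 were therefore each high in a different resistant line. RALGPS1, within which ANGPTL2 lies on the opposite strand, was 85.7 and 42.4 in PBRT15, 139.3 and 98.0 in PBRT16 and 72.6 and 44.5 in parental cells and passed no test (adjusted p = 0.891 in PBRT15 and 0.12 in PBRT16). KIAA0930 at 0.136, PRSS12 at 0.146 and NEFL at 0.180 were closest in pattern, but 6182 genes came within 1 of a profile that spans 2.34, so that likeness to it was common.

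Integrins are described as surface partners of ANGPTL2 and of several VEGF ligands. The α5β1 pair, bound by ANGPTL2, was abundant and passed no test: ITGA5 was 5363 and 5401 in PBRT15, 3501 and 4322 in PBRT16 and 5029 and 5336 in parental cells, and ITGB1 lay between 49970 and 59440 in all libraries. ITGA9, the integrin chain that binds VEGFC, fell by 5.57 ± 0.44 in PBRT15 (log2, SE; adjusted p = 0.0012), to 66.0 and 70.3, and fell by 6.68 ± 0.44 in PBRT16 (adjusted p = 0.000721), to 49.2 and 19.4, against 3607 and 2969 in parental cells. ITGB3, a partner of ITGAV, fell to 3040 and 3195 in PBRT15 and to 12810 and 14850 in PBRT16, against 38450 and 27180 in parental cells (log2 fold changes -3.37 in PBRT15 and -1.23 in PBRT16, adjusted p = 0.000591 in PBRT15 and 0.00976 in PBRT16). The fall in PBRT16 missed the threshold without its replicate 1 (adjusted p = 0.0544). ITGAV rose by 1.00 ± 0.12 in PBRT15 (adjusted p = 0.00407) and 0.82 ± 0.12 in PBRT16 (adjusted p = 0.00727). LILRB2, the other described receptor of ANGPTL2, was listed at 0 in all 6 libraries.

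VEGFC (ENSG00000150630), the lymphangiogenic ligand, was high in both resistant lines. It was 169.6 and 100.6 in PBRT15, 229.6 and 235.0 in PBRT16 and 8.58 and 5.06 in parental cells. Every PBRT library was above both parental libraries by more than the spread within any group. The means were 135.1 ± 48.8 in PBRT15, 232.3 ± 3.81 in PBRT16 and 6.82 ± 2.49 in parental cells (SD, n = 2 each). The ratio of means was 19.8 in PBRT15 and 34.1 in PBRT16, and the log2 fold changes were 4.11 ± 0.34 in PBRT15 and 4.94 ± 0.34 in PBRT16 (SE), on a scale that understates the change of a gene this low in parental cells. A noncoding RNA that overlaps VEGFC on the opposite strand, ENSG00000248388, was listed at 0 in all libraries. DIRC3 (0.246), GFRA1 (0.258) and JPH2 (0.262) were closest in pattern, with 325 genes within 1, and GFRA1, a coreceptor for GDNF, was 812.6 and 711.6 in PBRT15, 1647 and 1634 in PBRT16 and 80.5 and 45.2 in parental cells. Markers of mural cells had summed values over 10 genes of 10120 and 11440 in PBRT15, 18380 and 20300 in PBRT16 and 7478 and 7980 in parental cells. The sums came mostly from CSPG4, MCAM, NOTCH3 and, in the PBRT lines, PDGFRB. In each line 5 of 8 tested rose, beside 21.6% of all genes tested in PBRT15 and 21.1% in PBRT16. PDGFRB rose by 3.96 ± 0.28 in PBRT15 (limma adjusted p = 0.000901) and by 4.79 ± 0.28 in PBRT16 (adjusted p = 0.000543). NOTCH3 rose by 2.09 ± 0.23 in PBRT15 (adjusted p = 0.00297) and by 2.07 ± 0.23 in PBRT16 (adjusted p = 0.0031). MCAM and DES rose in PBRT16 only. CSPG4 fell in PBRT15 (log2 fold change -0.66, adjusted p = 0.0148) and rose in PBRT16 (0.74, adjusted p = 0.0106). RGS5 and ACTA2 rose in PBRT15 but were lower in PBRT16 than in PBRT15 (-0.75, adjusted p = 0.0288, and -1.68, adjusted p = 0.0207). The markers thus did not all run with VEGFC. ABCC9 and HIGD1B, which define pericytes, were under 1 in every library. KCNJ8, of the same list, rose by 1.91 ± 0.51 in PBRT15 (adjusted p = 0.0373) and had a log2 fold change of 1.61 ± 0.51 in PBRT16 (adjusted p = 0.0595). The part of the mural cell markers in the VEGFC result was not tested.

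Genes that turn the VEGFC precursor into active ligand were measured as a list of 17 genes on ligand maturation and release, of which 14 were tested. In PBRT15, 6 rose and 4 fell. In PBRT16, 7 rose and 4 fell. Over all genes tested, the shares were 21.6% higher and 19.5% lower in PBRT15, and 21.1% higher and 19.0% lower in PBRT16. CCBE1, the cofactor that brings the protease to VEGFC, was likewise higher in both lines: it was 495.2 and 185.9 in PBRT15, 795.3 and 690.2 in PBRT16 and 7.53 and 2.01 in parental cells. Its log2 fold change was 5.91 ± 0.67 in PBRT15 (adjusted p = 0.00319) and 7.19 ± 0.67 in PBRT16 (adjusted p = 0.00185). ADAMTS3, the main VEGFC protease, was lower, at 270.1 and 246.1 in PBRT15 and 158.8 and 179.6 in PBRT16, against 417.5 and 365.2 in parental cells. It fell by 0.60 ± 0.14 in PBRT15 (adjusted p = 0.0268, lost without any one of the PBRT15 and parental libraries or without the filter, 0.057 to 0.11) and by 1.2 ± 0.14 in PBRT16 (adjusted p = 0.00354). Its relatives ADAMTS2 and ADAMTS14 are procollagen proteases. ADAMTS2 was 444.7 and 450.7 in PBRT15, 1767 and 2214 in PBRT16 and 21.9 and 19.3 in parental cells (log2 fold changes 4.38 in PBRT15 and 6.52 in PBRT16, adjusted p = 0.000162 in PBRT15 and 6.7e-05 in PBRT16). ADAMTS14 rose by 1.58 ± 0.17 in PBRT16 (adjusted p = 0.00288) and had a log2 fold change of 0.54 ± 0.17 in PBRT15 (adjusted p = 0.0609).

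Among the proprotein convertases, which make an earlier cut in VEGFC, PCSK5 fell by 1.46 ± 0.13 in PBRT15 (adjusted p = 0.00156) and by 2.91 ± 0.13 in PBRT16 (adjusted p = 0.000255), while FURIN had log2 fold changes of 0.36 ± 0.19 in PBRT15 and 0.03 ± 0.19 in PBRT16 and passed no test. PCSK6 rose by 0.84 ± 0.17 in PBRT15 (adjusted p = 0.0161) and fell by 0.62 ± 0.17 in PBRT16 (adjusted p = 0.0385). PCSK7 rose by 0.56 ± 0.13 in PBRT15 (adjusted p = 0.0262) and had a log2 fold change of 0.24 ± 0.13 in PBRT16 (adjusted p = 0.202). CTSD, a lysosomal protease that can also cleave VEGFC, was 6878 and 9511 in PBRT15, 17020 and 21020 in PBRT16 and 3147 and 4070 in parental cells. It rose by 1.18 ± 0.24 in PBRT15 (adjusted p = 0.0175, 0.0683 without PBRT15 replicate 2 and 0.0864 without parental replicate 1) and by 2.40 ± 0.24 in PBRT16 (adjusted p = 0.00221). PLAT, the tissue plasminogen activator, fell to 1233 and 1699 in PBRT15 and to 2094 and 2454 in PBRT16, against 33430 and 30390 in parental cells (log2 fold changes -4.46 in PBRT15 and -3.81 in PBRT16, adjusted p = 0.00027 in PBRT15 and 0.000409 in PBRT16). HPSE, which frees matrix-bound growth factors by cutting heparan sulfate, rose by 2.22 ± 0.32 in PBRT16 (adjusted p = 0.00646) and had a log2 fold change of 1.05 ± 0.32 in PBRT15 (adjusted p = 0.054).

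The receptor of VEGFC was scarcely measured in these cells. FLT4 was listed at 0 in 5 libraries and at 0.955 in the other, a PBRT15 library, and KDR was 0.91 and 1.71 in PBRT15, 11.4 and 15.2 in PBRT16 and 5.77 and 8.07 in parental cells. NRP2, the coreceptor for VEGFC, fell to 2211 and 2453 in PBRT15 and to 5120 and 4440 in PBRT16, against 11580 and 9682 in parental cells. The log2 fold change was -2.18 ± 0.16 in PBRT15 (adjusted p = 0.000903) and -1.15 ± 0.16 in PBRT16 (adjusted p = 0.00542). KDR fell by 1.78 ± 0.26 in PBRT15 (adjusted p = 0.00705) at values under 10, and its log2 fold change in PBRT16 was 0.86 ± 0.26 (adjusted p = 0.0568).

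PGF (ENSG00000119630), placental growth factor, was the member that was lower in both resistant lines. It was 117.5 and 136.2 in PBRT15, 90.5 and 105.5 in PBRT16 and 390.0 and 381.1 in parental cells, with no overlap. The means were 126.8 ± 13.2 in PBRT15, 98.0 ± 10.6 in PBRT16 and 385.5 ± 6.27 in parental cells (SD, n = 2 each), and the log2 fold changes were -1.60 ± 0.14 in PBRT15 and -1.97 ± 0.14 in PBRT16 (SE). SRPX (0.0528), ACSS2 (0.0611) and CADPS2 (0.0902) were closest in pattern. With 9507 genes within 1 of a profile that spans 1.97, such likeness was common too.

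VEGFB (ENSG00000173511, chr11:64234584-64239264, plus strand), which binds the same receptor as PGF, was the least changed member. It was 480.6 and 443.8 in PBRT15, 492.4 and 602.7 in PBRT16 and 537.0 and 438.6 in parental cells. The libraries of each line overlapped with the parental ones, and the log2 fold changes were -0.07 ± 0.17 in PBRT15 and 0.17 ± 0.17 in PBRT16 (SE). Per kilobase of transcript, PGF was 0.254 and 0.318 times VEGFB in PBRT15, 0.191 and 0.182 times in PBRT16 and 0.753 and 0.901 times in parental cells. These ratios depend on the length used, and with the union of all exons they were 0.083 and 0.104 in PBRT15, 0.0624 and 0.0594 in PBRT16 and 0.246 and 0.295 in parental cells, lower in every library but in the same order of groups.

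FLT1, the receptor of PGF and VEGFB, was the most abundant VEGF receptor per length. It was 3569 and 2316 in PBRT15, 2198 and 1519 in PBRT16 and 5417 and 4627 in parental cells. Its log2 fold change was -0.80 ± 0.29 in PBRT15 (adjusted p = 0.0851) and it fell by 1.45 ± 0.29 in PBRT16 (adjusted p = 0.017, 0.0637 to 0.0914 without PBRT16 replicate 2 or either parental library). NRP1, the coreceptor shared by VEGFA, VEGFB and PGF, was 9702 and 9955 in PBRT15, 7977 and 9317 in PBRT16 and 3903 and 5409 in parental cells. It rose by 1.10 ± 0.20 in PBRT15 (adjusted p = 0.0122) and 0.91 ± 0.20 in PBRT16 (adjusted p = 0.0214). These calls were lost without either PBRT15 library in PBRT15 (0.0528 and 0.0591), and without either PBRT16 library, without parental replicate 1 or without the filter in PBRT16 (0.0601 to 0.101). NRP1 and NRP2 thus moved in opposite directions in both lines.

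**Figure D2:**
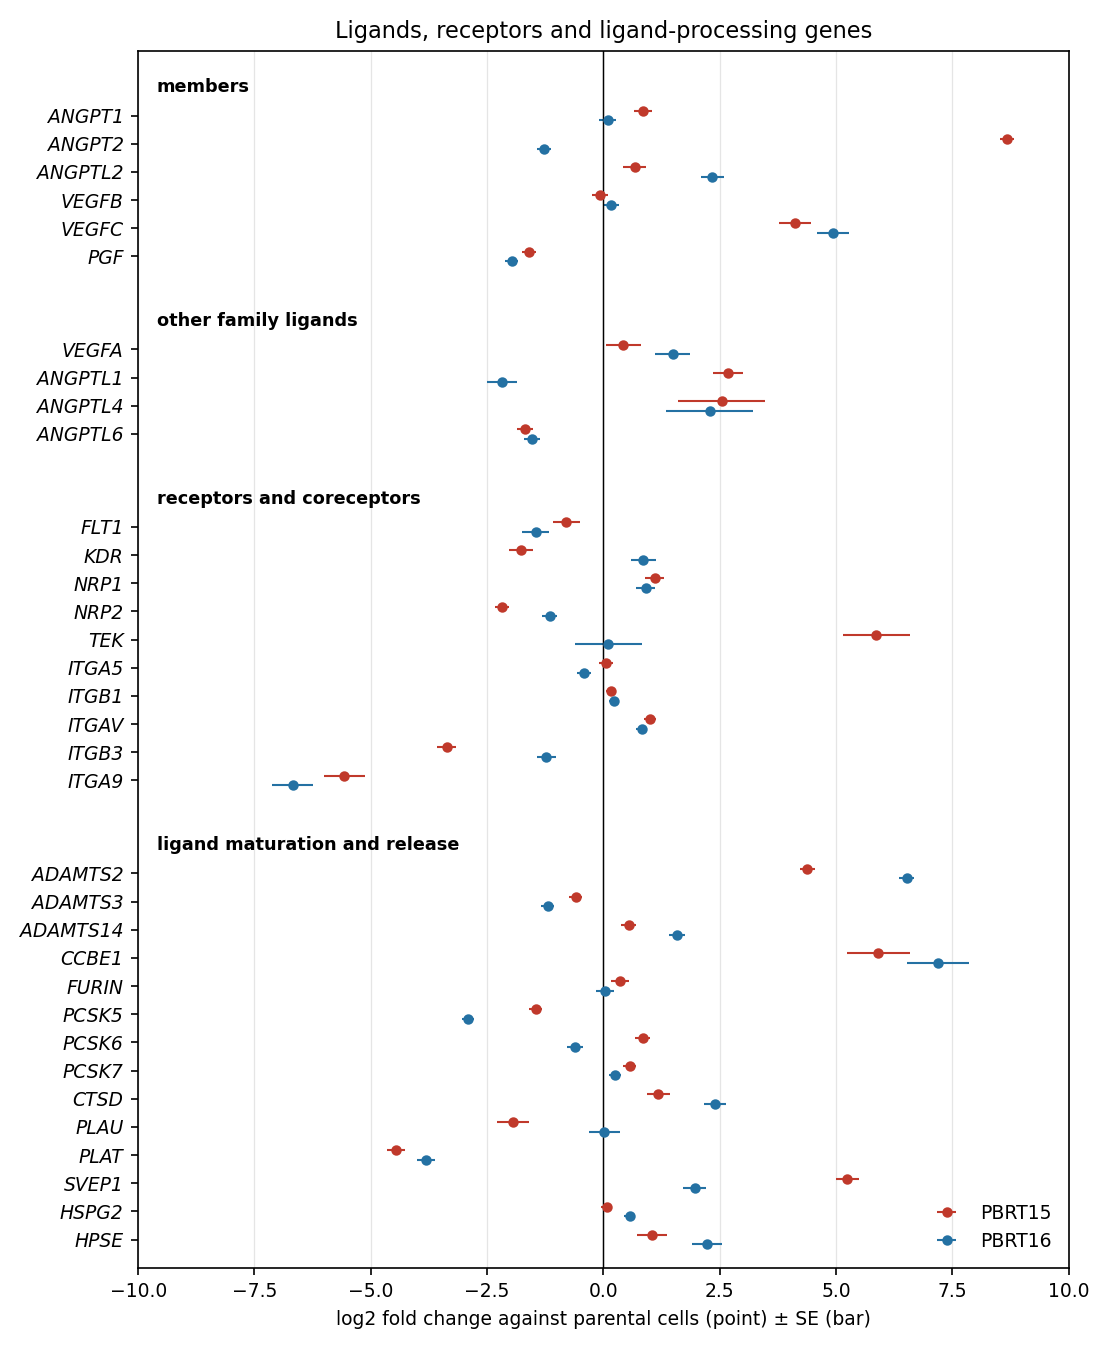
Fitted log2 fold change against parental cells (point) with its standard error (bar) for the 6 members and the tested genes of 3 lists, in PBRT15 (red) and PBRT16 (blue). ANGPT2 at 8.67 and -1.27, TEK at 5.86 and 0.10 and ANGPTL1 at 2.68 and -2.18 lie far apart between the lines, whereas VEGFC, CCBE1 and ADAMTS2 lie to the right and PGF, NRP2, ITGA9 and PLAT to the left in both.

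VEGFA, the founding ligand of the family, was 3947 and 7042 in PBRT15, 8506 and 14260 in PBRT16 and 3550 and 4312 in parental cells. It rose by 1.49 ± 0.38 in PBRT16 (adjusted p = 0.0344) and had a log2 fold change of 0.43 ± 0.38 in PBRT15 (adjusted p = 0.409), with overlapping libraries. The rise in PBRT16 missed the threshold without the filter, without PBRT16 replicate 2 and without either parental library (0.0794 to 0.149). As a share of the summed VEGF family level per kilobase, VEGFA was 72.8% and 84.1% in PBRT15, 84.6% and 88.7% in PBRT16 and 65.2% and 72.0% in parental cells. The share of PGF was 4.49% and 3.37% in PBRT15, 1.87% and 1.36% in PBRT16 and 14.9% and 13.2% in parental cells. That of VEGFC was 4.99% and 1.92% in PBRT15, 3.65% and 2.34% in PBRT16 and 0.252% and 0.135% in parental cells. PGF therefore exceeded VEGFC in every parental library, whereas VEGFC exceeded PGF in 3 of 4 PBRT libraries and in all 4 with the union of exons as length. VEGFD, the other ligand of FLT4, was at most 6.62.

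**Figure D3:**
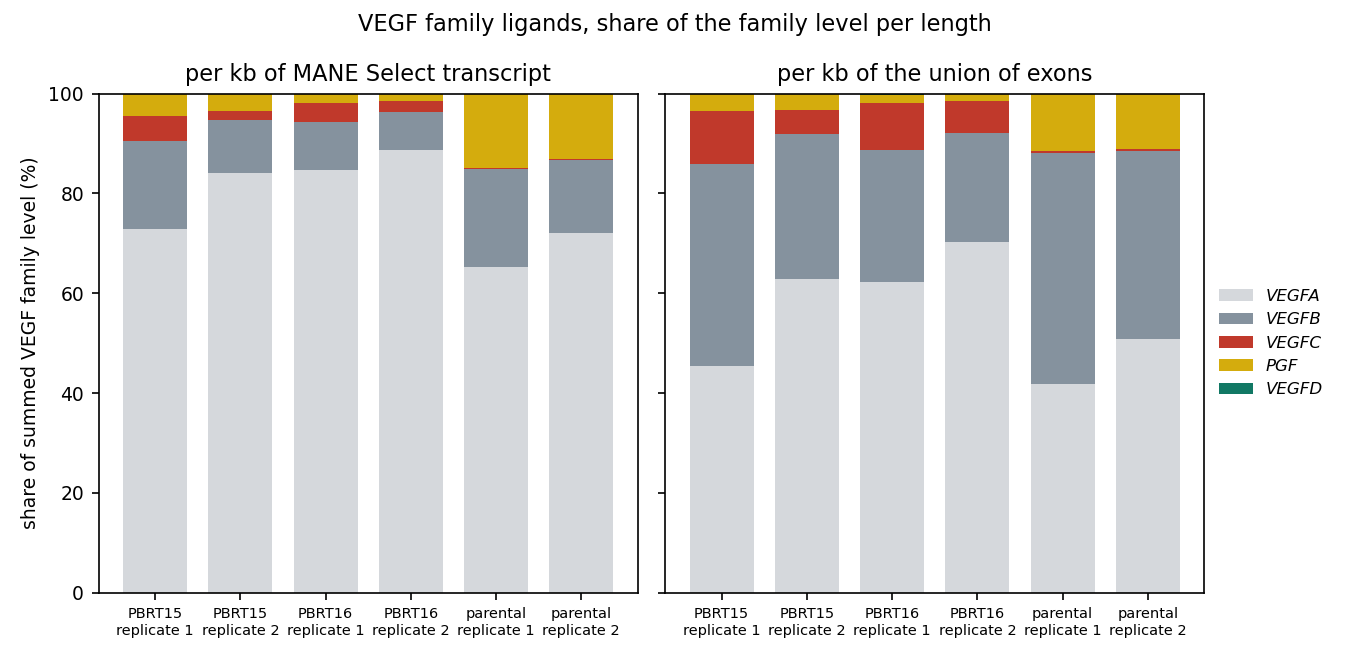
Share (%) of each VEGF family ligand in the summed level per kilobase, in the 2 libraries each of PBRT15, PBRT16 and parental cells, with the length of the MANE Select transcript (left) or of the union of exons (right). The PGF segment is 13.2% or more of the bar in parental cells on the left and at most 4.49% in the PBRT lines, and the VEGFC segment is at most 0.557% in parental cells in either panel, against 1.92% or more in the PBRT lines, while the split between VEGFA and VEGFB depends on the length.

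Ordered by level per kilobase of MANE transcript, the members ran differently in each line. In PBRT15 the means were 569 for ANGPT2, 256 for VEGFB, 204 for ANGPTL2, 139 for ANGPT1, 72.9 for PGF and 59.8 for VEGFC, where VEGFB and ANGPTL2 overlapped, as did PGF and VEGFC. In PBRT16 they were 635 for ANGPTL2, 303 for VEGFB, 103 for VEGFC, 81.4 for ANGPT1, 56.3 for PGF and 0.384 for ANGPT2, with no overlap between neighbours in that order. In parental cells they were 270 for VEGFB, 222 for PGF, 125 for ANGPTL2, 76.1 for ANGPT1, 3.02 for VEGFC and 1.2 for ANGPT2, again with no overlap. The member at the top was thus a different one in each group, ANGPT2 in PBRT15, ANGPTL2 in PBRT16 and VEGFB in parental cells. Lower places depend on the length used. For PGF the union of exons is 5804 bases, against 1740 for the MANE transcript. With the union, PGF comes after VEGFC in PBRT15 and after ANGPTL2 in parental cells.

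Counted over the members, both PBRT15 libraries were above both parental libraries for 4 of 6 and below for 1, beside 37.0% and 37.9% of all genes tested. Both PBRT16 libraries were above both parental libraries for 2 of 6 and below for 2, beside 37.7% and 38.4% of all genes. The members were chosen by these contrasts, and nothing is read from the counts. Directly between the lines, PBRT16 was below PBRT15 by a log2 difference of -9.95 ± 0.15 for ANGPT2, -0.76 ± 0.19 for ANGPT1 and -0.37 ± 0.14 for PGF, and above it by 1.67 ± 0.25 for ANGPTL2, 0.83 ± 0.34 for VEGFC and 0.24 ± 0.17 for VEGFB (SE).

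The remaining ligands and receptors, to be read beside the shares of all genes given above, were counted from lists written from general knowledge of the pathway. Of 10 other ligands of the families 4 were tested. In PBRT15, 1 rose and 1 fell. In PBRT16, 1 rose and 2 fell. ANGPTL6 fell by 1.68 ± 0.17 in PBRT15 (adjusted p = 0.00232) and 1.54 ± 0.17 in PBRT16 (adjusted p = 0.00303). ANGPTL4, which is induced by hypoxia and fasting, was 43.6 and 59.4 in PBRT15, 15.2 and 115.1 in PBRT16 and 6.83 and 9.19 in parental cells and missed the threshold (adjusted p = 0.087 in PBRT15 and 0.113 in PBRT16), its PBRT16 libraries lying far apart. It passed in PBRT15 without either PBRT16 library or with only the 4 libraries compared (0.00627) and with a prior spread that follows the level (0.0349), and in PBRT16 without its replicate 1 (0.00636). Of 14 receptors and coreceptors 10 were tested. In PBRT15, 3 rose and 4 fell. In PBRT16, 2 rose and 4 fell. PBRT16 was higher than PBRT15 for 3 of these receptors and lower for 1, beside 7.5% and 8.28% of all genes. The 6 lists together held 95 genes, of which 75 were tested. In PBRT15 34 rose and 15 fell with a median log2 fold change of 0.54, and in PBRT16 34 rose and 15 fell with a median of 0.56, against medians of -0.01 and 0.00 over all genes tested.

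Of 14 tested regulators of ligand transcription, PBRT15 had 4 that rose and 2 that fell, and PBRT16 had 4 that rose and 3 that fell, beside 21.6% and 19.5% of all genes tested in PBRT15 and 21.1% and 19.0% in PBRT16, shares to which these counts are close. EPAS1 (HIF2A), a hypoxia-inducible factor of endothelial and renal cells, was 13810 and 14690 in PBRT15, 6123 and 6131 in PBRT16 and 328.5 and 334.0 in parental cells. It rose by 5.42 ± 0.11 in PBRT15 (adjusted p = 5.1e-05) and by 4.21 ± 0.11 in PBRT16 (adjusted p = 7.8e-05). HIF1A had smaller log2 fold changes, of 0.24 ± 0.12 in PBRT15 (adjusted p = 0.182) and 0.45 ± 0.12 in PBRT16 (adjusted p = 0.0403). EGLN3, a prolyl hydroxylase that marks HIF proteins for decay and is itself a HIF target, rose by 1.69 ± 0.14 in PBRT15 (adjusted p = 0.00122) and by 1.67 ± 0.14 in PBRT16 (adjusted p = 0.00128). FOXO1, a factor at the ANGPT2 promoter in endothelium, was 165.2 and 219.6 in PBRT15, 261.4 and 281.0 in PBRT16 and 389.9 and 262.5 in parental cells and passed no test. ETS1 went opposite ways, falling by 0.46 ± 0.12 in PBRT15 (adjusted p = 0.0356) and rising by 0.44 ± 0.12 in PBRT16 (adjusted p = 0.0396). The calls of ETS1 and HIF1A lay near the threshold and were not recomputed with libraries left out.

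Of 14 tested genes listed as inhibitors of angiogenesis, PBRT15 had 7 that rose and 2 that fell. PBRT16 had 8 that rose and none that fell, beside the same shares of all genes. THBS1, a matricellular inhibitor that acts on endothelial cells, was 85740 and 93630 in PBRT15, 77170 and 118300 in PBRT16 and 7829 and 9439 in parental cells (log2 fold changes 3.38 in PBRT15 and 3.47 in PBRT16, adjusted p = 0.00091 in PBRT15 and 0.000855 in PBRT16). COL18A1, the collagen from which endostatin is cut, was 8988 and 8762 in PBRT15, 3461 and 3316 in PBRT16 and 997.6 and 1093 in parental cells (log2 fold changes 3.09 in PBRT15 and 1.70 in PBRT16, adjusted p = 0.000171 in PBRT15 and 0.000776 in PBRT16). VASH2 was listed for its vasohibin family, is not established as an inhibitor, and is 1 of the 8 that rose in PBRT16. It rose there by 2.22 ± 0.26 (adjusted p = 0.00356) and had a log2 fold change of -0.21 ± 0.26 in PBRT15 (adjusted p = 0.554). TIMP3, which blocks VEGFA binding to KDR, fell by 1.07 ± 0.27 in PBRT15 (adjusted p = 0.0328) and had a log2 fold change of -0.79 ± 0.27 in PBRT16 (adjusted p = 0.0732).

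The nearest genes around ANGPT2 in PBRT15, and around VEGFC and PGF in both lines, stayed short of the member, which was not so around ANGPT1 or VEGFB. Over the 5 nearest tested protein-coding genes on each side, the median log2 fold change in PBRT15 was 0.27 around ANGPT2, -0.07 around VEGFC, -0.02 around ANGPTL2, -0.09 around PGF, -0.15 around ANGPT1 and 0.05 around VEGFB. In PBRT16 it was 0.19 around ANGPT2, -0.05 around VEGFC, -0.14 around ANGPTL2, -0.14 around PGF, -0.34 around ANGPT1 and 0.11 around VEGFB. AGPAT5, the nearest gene on the other side of ANGPT2 from MCPH1 at 0.209 Mb, had log2 fold changes of -1.26 in PBRT15 and -1.13 in PBRT16. The neighbours ranged from -1.26 to 2.06 around ANGPT2 in PBRT15, and the member at 8.67 lay outside that range. Those of VEGFC ranged from -0.71 to 1.72 in PBRT15 and from -1.02 to 1.54 in PBRT16, again without reaching the member. Around ANGPT1 they ranged from -6.18 to 1.80 in PBRT15, beyond the member at 0.85 on both sides, with DCSTAMP lowest and ZFPM2 highest. Around VEGFB they ranged from -4.93 to 1.73 in PBRT15 and from -4.05 to 1.52 in PBRT16, beyond the member on both sides. Around ANGPTL2 they ranged from -0.94 to 0.48 in PBRT15, where the member was at 0.67, and from -1.64 to 1.03 in PBRT16, where it was at 2.34.

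**Figure D4:**
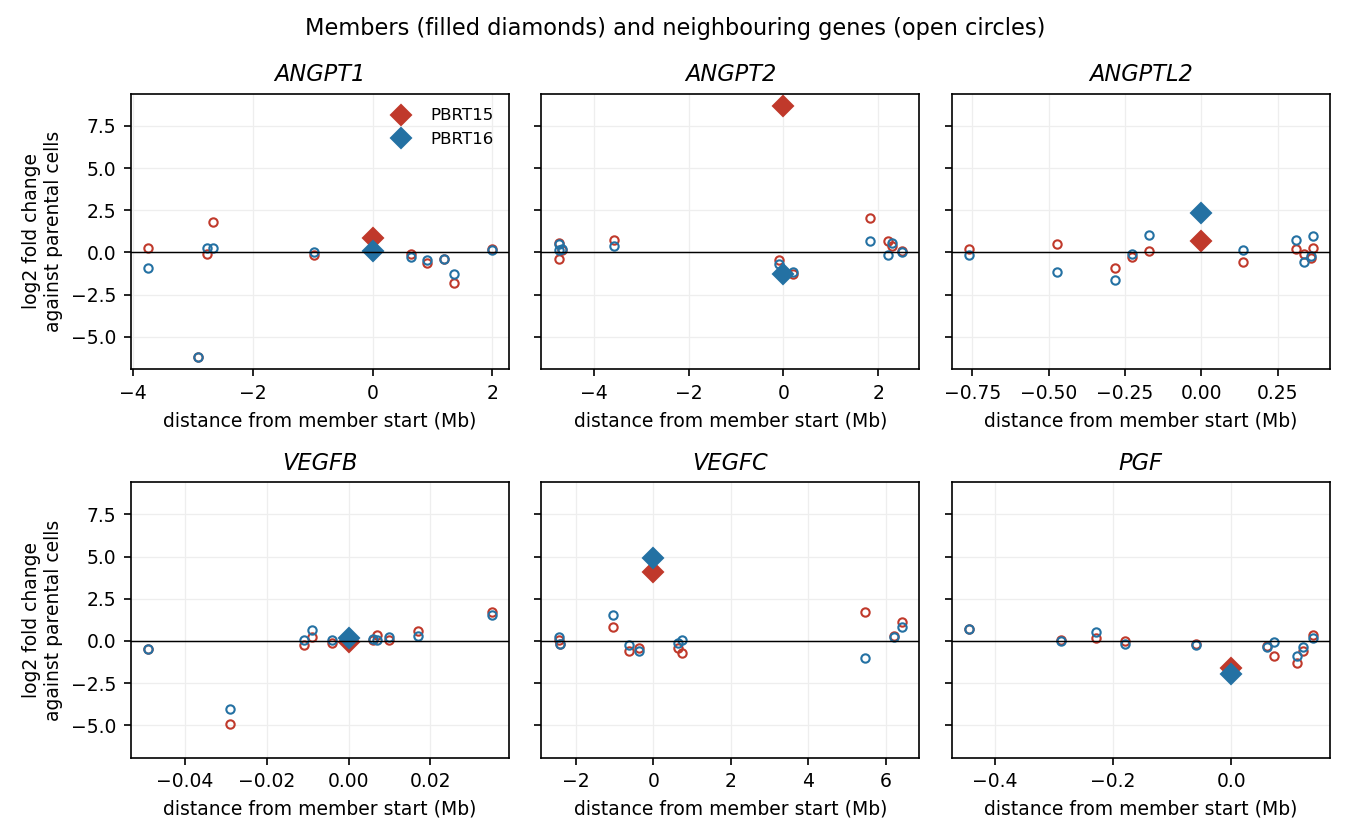
Log2 fold change against parental cells of each member (filled diamonds at 0) and of the 5 nearest tested protein-coding genes on each side (open circles), against the distance of their starts (Mb), in PBRT15 (red) and PBRT16 (blue). ANGPT2 in PBRT15 at 8.67 and VEGFC in both lines at 4.11 and 4.94 stand above all their neighbours, and PGF at -1.60 and -1.97 stands below its own.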

How the data were processed

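RNA was prepared with a stranded TruSeq mRNA kit and sequenced as paired ends, and the authors aligned reads with STAR to GRCh38 (version 2.6.1a in the submitters' processing notes, which differs from that in the paper's reporting summary), quantified genes with RSEM and compared lines with DESeq2. The deposited values are a normalized signal per gene and library, not whole counts. No single step turned them back into reads, so depth is unknown and no interval for counting error is given. How they were normalized is not given in the sources consulted. Median-of-ratios factors were 1.00043 to 1.01324, so the libraries shared a scale.

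Of 60662 gene IDs, 45 pseudoautosomal copies were left out, and 60357 of the others matched GENCODE v44. The filter asked for a scaled value of at least 10 in at least 2 libraries and a sum of at least 15. A model of 3 groups in 6 libraries was fitted to log2(value + 1) with limma 3.58.1 in R 4.3.3, with 3 residual and 1.89 prior degrees of freedom, in place of a count test. P-values were adjusted by Benjamini-Hochberg over all 16555 genes. The threshold for a list gene to rise or fall was an adjusted p of 0.05, to which the counts of genes called add a fold of at least 2. The fit was tested on simulated data.

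The members, the lists and the rule for naming genes were chosen with earlier results of these data known. The rule takes the members, detected family ligands and receptors, the 3 largest rises and falls of each other list in each line, genes overlapping a member, the 3 genes closest in pattern to each member that spans at least 1 on the log2 scale, and SOX10. Only part of the genes so allowed are named. ADAMTS14, FURIN, PCSK6, PCSK7, HPSE, DCSTAMP, ZFPM2, FOXO1, ETS1, HIF1A, VASH2, TIMP3, CTSD, AGPAT5 and single markers of cell types are named for their role or as extremes, after their values were seen. Alternatives changed the pseudocount, scaling, filter, libraries in the fit, prior spread and replicate block, or left out each library.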

Additional observations from a re-analysis of the deposited data

Results flagged for a closer look

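The resistant lines differed from each other in several ligands and partners, all given as PBRT16 against PBRT15 on the log2 scale, with limma adjusted p over all genes. ANGPT2 differed by -9.95, which was not tested because it was selected for this. TEK, its receptor, differed by -5.76 (adjusted p = 0.0125), ANGPTL1 by -4.86 (0.00254) and the angiopoietin-binding SVEP1 by -3.28 (0.004). The VEGF receptor KDR was higher by 2.64 (0.00763) and the coreceptor NRP2 by 1.03 (0.0194). The integrin chain ITGB3 was higher by 2.15 (0.00673). Among genes of ligand maturation, ADAMTS2 was higher by 2.14 (0.00362) and ADAMTS14 by 1.04 (0.0236), and PCSK5 differed by -1.46 (0.00553). The factor EPAS1 differed by -1.22 (0.00577) and the endostatin precursor COL18A1 by -1.39 (0.00467). Of other secreted factors, CXCL12 was higher by 2.21 (0.015) and PDGFB by 6.91 (0.00865), while PDGFD differed by -5.47 (0.00198) and MDK by -1.45 (0.014). TEK, ANGPTL1, KDR, PDGFB and PDGFD passed the filter only through the line in which they are high. The call was lost for TEK, NRP2, ADAMTS14, CXCL12, PDGFB and MDK when single libraries were left out (adjusted p = 0.0503 to 0.0964): any PBRT library for NRP2, ADAMTS14 and CXCL12, PBRT15 replicate 1 or 2 or PBRT16 replicate 1 for TEK, PBRT15 replicate 1 or either PBRT16 library for PDGFB, and PBRT15 replicate 2 or either PBRT16 library for MDK. For ADAMTS14 either parental library did so too, and for NRP2 and ADAMTS14 so did the absence of a filter.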

How the results depend on the processing

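The fold changes of the 6 members kept their direction wherever the library values did not overlap. Over 16 settings the log2 fold change of ANGPT2 ran between 8.05 and 8.82 in PBRT15 and between -1.43 and -0.69 in PBRT16, its lowest sizes coming from a pseudocount of 5, and VEGFC ran between 3.54 and 4.48 in PBRT15 and between 4.34 and 5.27 in PBRT16. ANGPT1 in PBRT16 ran between -0.03 and 0.22 and VEGFB in PBRT15 between -0.22 and 0.07. The value for TEK in PBRT16, which passed no test, changed sign to -0.01 with a pseudocount of 5, -0.40 without PBRT16 replicate 2 and -0.88 without parental replicate 1, and ran up to 1.08 over the libraries left out. For the other named genes recomputed, a fold change under an alternative lost its call in 47 instances and gained one in 13, and 1057 instances kept their side of the threshold. ERG, VWF, ESAM, CD68, MCPH1, CSPG4, PCSK6, PCSK7, ETS1, HIF1A, TIMP3 and further named genes were not recomputed. How their calls depend on the settings was not tested.

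Leaving out 1 library at a time gave 3193 to 3787 genes called in PBRT15 (3909 with all), 3076 to 3738 in PBRT16 (3824 with all) and 769 to 1094 between PBRT16 and PBRT15 (1533 with all). List genes that rose or fell then numbered 34 to 44 in PBRT15 (49 with all), 36 to 45 in PBRT16 (49 with all) and 11 to 20 between the lines (27 with all). Leaving out any 1 PBRT library moved these last counts by over 1.5 times. The counts between the lines thus moved the most, in fits with fewer samples.

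No label tells whether libraries with the same replicate number were handled together. Their deviations correlated across genes by 0.018 between PBRT15 and parental cells, 0.038 between PBRT16 and parental cells and 0.136 between PBRT16 and PBRT15. A replicate block gave 3843 genes called in PBRT15, 3797 in PBRT16 and 1356 between the lines, and 48, 47 and 23 list genes. Among the named genes that were recomputed, the block lost no call and added FLT1 in PBRT15 (adjusted p = 0.0264) and KDR in PBRT16 (0.0127). With the union of exons as length, the log2 ratio of ANGPT2 to ANGPT1 was 2.43 in PBRT15, -7.34 in PBRT16 and -5.60 in parental cells. With up to 10 neighbours on each side, of which ANGPT2 had 18 in all, the median around ANGPT2 in PBRT15 was -0.35 and around PGF in PBRT16 0.13. Single neighbours then exceeded the member in size. They reached -6.87 in PBRT15 and -7.08 in PBRT16 around VEGFC, and 2.52 in PBRT15 and 2.56 in PBRT16 around PGF. Around ANGPT2 they reached -1.86 in PBRT16, where the member was at -1.27.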

Other observations

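Other secreted angiogenic factors were also measured, as a list of 23 genes. Of 19 tested, PBRT15 had 13 that rose and 2 that fell, and PBRT16 had 12 that rose and 2 that fell, beside 21.6% and 19.5% of all genes in PBRT15 and 21.1% and 19.0% in PBRT16, with median log2 fold changes of 1.94 and 1.83, against -0.01 and 0.00 over all genes tested. CXCL12, a chemokine for endothelial progenitors and leukocytes, was 2271 and 2656 in PBRT15, 11510 and 11220 in PBRT16 and 0.611 and 1.89 in parental cells (log2 fold changes 10.15 in PBRT15 and 12.36 in PBRT16, limma adjusted p = 9.7e-05 in PBRT15 and 6.7e-05 in PBRT16). The vasoactive peptide genes ADM and EDN1 rose in both lines. ADM was 332.7 and 390.4 in PBRT15, 241.8 and 292.1 in PBRT16 and 2.89 and 7.49 in parental cells (adjusted p = 0.000719 in PBRT15 and 0.000889 in PBRT16). EDN1 was 74.1 and 41.0 in PBRT15, 177.1 and 188.3 in PBRT16 and 2.16 and 4.07 in parental cells (adjusted p = 0.00194 in PBRT15 and 0.000711 in PBRT16). CCN1, a matricellular protein, rose by 3.74 ± 0.18 in PBRT15 (SE; adjusted p = 0.000332) and by 3.61 ± 0.18 in PBRT16 (adjusted p = 0.000368).

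Of the platelet-derived growth factors, PDGFA, PDGFB and PDGFD separated the lines, whereas PDGFC was not called between them (log2 difference 1.07, limma adjusted p = 0.0668). PDGFA was 2365 and 1997 in PBRT15, 710.4 and 935.1 in PBRT16 and 1687 and 1395 in parental cells, and PBRT16 was below PBRT15 (-1.41, adjusted p = 0.0169). PDGFB was 0.78 and 1.47 in PBRT15, 275.4 and 227.5 in PBRT16 and 3.32 and 19.1 in parental cells. PDGFD was 64.3 and 57.6 in PBRT15, 0 and 0.942 in PBRT16 and listed at 0 in both parental libraries. PDGFC fell in both lines, by 2.49 ± 0.28 in PBRT15 (adjusted p = 0.00318) and by 1.41 ± 0.28 in PBRT16 (adjusted p = 0.0167). PDGFD, like ANGPT2, was thus highest in PBRT15, and PDGFB, like ANGPTL2, in PBRT16.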
